A study of Mus musculus with 12 samples.

Results

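The effect of maternal diabetes on the adult left ventricle (LV) was measured over both genotypes at once, by setting the 6 samples from diabetic pregnancy against the 6 samples from non-diabetic pregnancy with genotype as a second term of an additive model. These are all 12 of the 12 samples of the series. A gene was tested if it had 10 or more counts in at least 3 samples, which left 14927 of the 46983 genes in the files. The 4 groups of 3 LVs each were *Wt* non-diabetic, *Wt* diabetic, *Hif1a*+/- non-diabetic and *Hif1a*+/- diabetic, where diabetic refers to the pregnancy and not to the animal sequenced. All offspring were on the FVB background and 12 weeks old. Diabetes was induced in *Wt* FVB females with streptozotocin, which destroys the insulin-producing beta cells, and the females of both arms were mated with non-diabetic *Hif1a*+/- males that carry the Hif1a tm1jhu null allele, a global heterozygous deletion. Every dam was therefore *Wt*, and the allele came from the father in each *Hif1a*+/- animal. The animals of a group came from several litters, but the labels do not tie a sample to a litter, so littermates cannot be recognised among the samples.

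Maternal diabetes reaches the embryo mainly as excess glucose, and animals exposed before birth can carry altered gene expression into adult life, which is called fetal programming. The adult LV is built from cardiomyocytes, which give most of its RNA, together with endothelial cells, fibroblasts, pericytes, resident macrophages and nerves. HIF-1α, the product of *Hif1a*, is the oxygen-regulated subunit of the transcription factor HIF-1, which switches on genes of glycolysis, angiogenesis and cell survival. In a bulk sample, fewer cells of a type and less RNA per cell cannot be told apart.

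Between 16132442 and 39812939 counts were assigned to genes in a sample. The cardiomyocyte markers *Myh6*, *Tnnt2*, *Actc1*, *Tnni3* and *Myl2* each lay at or above 4780 CPM (counts scaled to a common library size after TMM normalization) in every sample, whereas the atrial myosin light chains *Myl7* and *Myl4* stayed at or below 10.49 CPM. *Hif1a* itself was counted at 48.0 to 71.8 CPM in the 6 *Wt* samples and at 64.8 to 89.3 CPM in the 6 labelled *Hif1a*+/- (edgeR log2 difference 0.43, SE 0.08, adjusted p = 0.432). The libraries read the 3′ ends of transcripts and not the part of the gene that the null allele lacks, so these counts do not check the genotype. As to sex, the sample labels say female whereas the series text says male. Y-linked counts were above those of *Xist* in 11 samples and below them in 1, *Hif1a*+/- diabetic replicate 72. Principal component 1 held 24.2% of the variance and ran from -19.6 to 10.2 in non-diabetic and from -16.5 to 29.99 in diabetic samples (exact permutation test within genotype, two-sided p = 0.11).

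No gene passed an adjusted p of 0.1 for maternal diabetes in edgeR's quasi-likelihood test (0 of 14927 genes, 0%), although 11 genes had an adjusted p under 0.11 and the smallest was 0.106. At an unadjusted p under 0.05 there were 1707 genes (11.4%), of which 837 were higher and 870 lower after diabetic pregnancy. DESeq2, with the same additive model, called 199 genes, 108 higher (0.724%) and 91 lower (0.61%). All 6 diabetic samples lay above all 6 non-diabetic samples for 38 genes (0.255%) and below them for 50 genes (0.335%). Of these 88 genes, 48 were among the DESeq2 calls. The differences were small, with a median absolute log2 difference of 0.41 over the DESeq2 calls, and 13 of the 199 exceeded 1.

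The number of genes called depended on single libraries, as the bars of calls by omitted sample show. Without *Wt* non-diabetic replicate 89, edgeR called 169 genes (67 higher and 102 lower), and without *Wt* diabetic replicate 50 it called 72 (49 higher and 23 lower). It called 2 genes without *Hif1a*+/- diabetic replicate 66, 1 without *Hif1a*+/- non-diabetic replicate 14 and none without each of the other 8. The DESeq2 count was 1069 without *Wt* non-diabetic replicate 89, 675 without *Wt* diabetic replicate 7 and 498 without *Wt* diabetic replicate 50. It was 157 without *Wt* non-diabetic replicate 25 and between 58 and 128 without each of the other 8, with 58 for *Wt* non-diabetic replicate 42, 67 for *Hif1a*+/- non-diabetic replicate 44 and 124 for *Hif1a*+/- diabetic replicate 72, whose Y-linked counts stood apart.

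**Figure D1:**
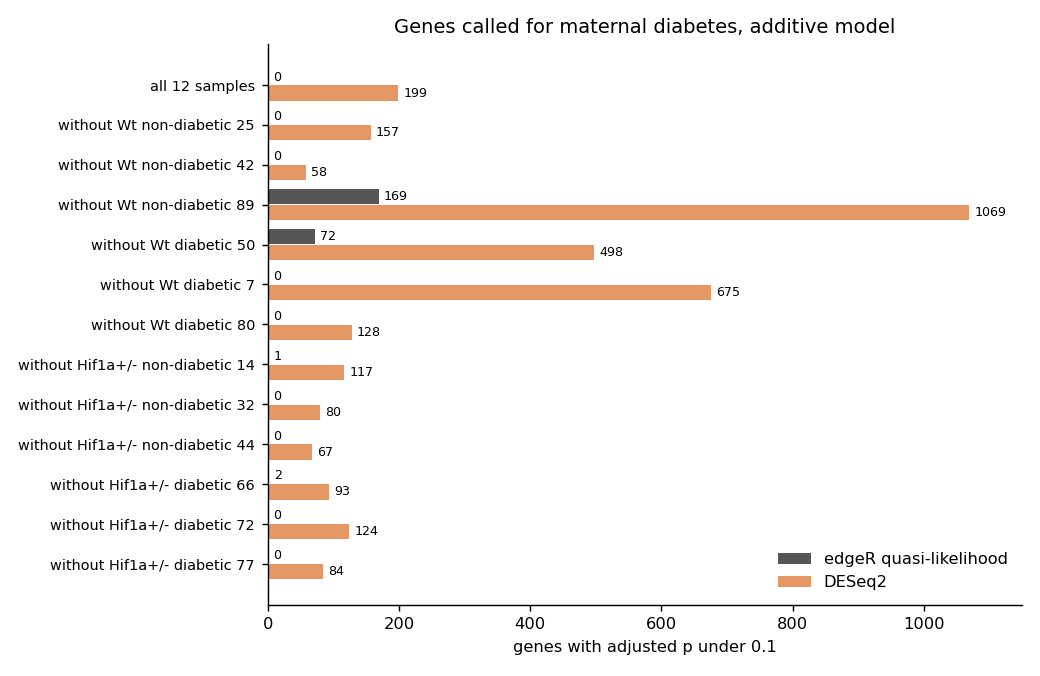
Genes with an adjusted p under 0.1 for maternal diabetes in the additive model (x axis), by edgeR (grey) and DESeq2 (orange), with all 12 samples and with each sample left out in turn (y axis). The grey bars are at 0 with all samples and reach 169 without *Wt* non-diabetic replicate 89, and the orange bars run from 58 to 1069.

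The genes with the smallest p values for a higher level after diabetic pregnancy began with *Mknk2* and *Il33*. The 15 genes chosen by this rule had edgeR adjusted p values from 0.106 to 0.176 and fold differences from 1.26 to 2.86, and DESeq2 called all 30 genes that the rule named in both directions. For 9 of these 15 genes all diabetic samples lay above all non-diabetic samples, which the choice by p favours, beside 0.255% of all tested genes. *Mknk2*, on chromosome 10 from 80665327 to 80678112, encodes a kinase that phosphorylates the cap-binding factor eIF4E. It was at 296 (lowest), 310 (median) and 322 (highest) CPM in the 6 non-diabetic samples and at 353.5, 395 and 428 CPM in the 6 diabetic samples. The groups did not overlap in either genotype, and the log2 difference was 0.33 (SE 0.05, edgeR adjusted p = 0.106, DESeq2 adjusted p = 2.055e-06). *Il33*, on chromosome 19 from 29925114 to 29960718, encodes a cytokine of the interleukin-1 family that is stored in the nucleus of stromal and endothelial cells and released upon injury. Its level was 2.165, 2.26 and 4.13 CPM in non-diabetic and 4.48, 7.17 and 12.5 CPM in diabetic samples, a log2 difference of 1.40 (SE 0.24, edgeR adjusted p = 0.106). The lowest diabetic sample, *Wt* replicate 50, was just above the highest non-diabetic sample, *Hif1a*+/- replicate 14. By group, *Il33* was at 2.73 ± 0.925 CPM in *Wt* non-diabetic, 6.44 ± 1.80 in *Wt* diabetic, 2.88 ± 1.08 in *Hif1a*+/- non-diabetic and 8.50 ± 3.65 in *Hif1a*+/- diabetic samples (SD, n = 3 each).

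The 250 bases before the first RefSeq start of *Mknk2* and *Il33*, the pair with the smallest p among the genes that were higher, are shown because the deletion carried by the *Hif1a*+/- animals concerns a factor that binds ACGTG and GCGTG. They are from GRCm38.p6, written 5′ to 3′ in the direction of the gene, and capitals mark ACGTG or GCGTG on either strand. *Mknk2* had 1 such match and *Il33* had none in this window. The *Mknk2* window lies inside the gene span given above, so the bases before the outer end of that span are not shown.
*Mknk2* (chr10:80676294-80676543, - strand): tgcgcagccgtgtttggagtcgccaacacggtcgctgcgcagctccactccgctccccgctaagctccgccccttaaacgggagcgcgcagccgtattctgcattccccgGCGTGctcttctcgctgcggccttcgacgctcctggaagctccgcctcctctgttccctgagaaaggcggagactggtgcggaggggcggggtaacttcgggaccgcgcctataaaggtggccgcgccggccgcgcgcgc
*Il33* (chr19:29924863-29925112, + strand): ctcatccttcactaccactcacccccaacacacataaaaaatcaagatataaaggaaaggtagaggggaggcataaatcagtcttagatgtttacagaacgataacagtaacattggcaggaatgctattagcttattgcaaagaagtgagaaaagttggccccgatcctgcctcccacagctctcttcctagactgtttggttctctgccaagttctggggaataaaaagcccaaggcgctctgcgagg

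Enzymes of lipid mediator synthesis stood among the same 15 genes. *Ptgis*, prostacyclin synthase, was at 14.6, 16.5 and 18.1 CPM in non-diabetic and at 20.9, 22.5 and 29.98 CPM in diabetic samples (log2 difference 0.54, SE 0.10, edgeR adjusted p = 0.106). *Pla2g4a*, the cytosolic phospholipase that frees arachidonic acid from membranes, was at 3.44, 3.85 and 4.55 CPM against 5.16, 5.995 and 7.08 CPM (log2 difference 0.60, SE 0.11). Neither gene had a diabetic sample inside the non-diabetic range. *Aldh1a2*, which makes retinoic acid and marks epicardial cells, was at 1.44, 2.00 and 2.49 CPM against 2.64, 3.43 and 3.915 CPM, a log2 difference of 0.78 (SE 0.16). *Gsta3*, a glutathione transferase, had a log2 difference of 0.86 (SE 0.16), but *Hif1a*+/- diabetic replicate 66, at 6.545 CPM, lay within the non-diabetic range of 5.685 to 8.13 CPM.

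Among membrane proteins, *Emcn*, the sialomucin endomucin of venous and capillary endothelium, was at 42.6, 46.7 and 48.4 CPM in non-diabetic and 50.9, 59.8 and 63.3 CPM in diabetic samples (log2 difference 0.35, SE 0.06, edgeR adjusted p = 0.106). *Amigo2*, an adhesion protein, was at 4.57, 5.28 and 6.23 CPM against 6.80, 7.97 and 8.72 CPM, with log2 differences of 0.57 within *Wt* and 0.58 within *Hif1a*+/-. *Axl*, the receptor tyrosine kinase for Gas6, was at 91.5, 101 and 109 CPM against 105, 145 and 199 CPM, and here only *Wt* diabetic replicate 50 fell inside the non-diabetic range. *Fxyd5*, a regulator of the sodium pump and of cell adhesion, had a log2 difference of 0.55 (SE 0.11), with the same sample inside the range.

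The chemokines *Ccl6* and *Ccl9*, which attract myeloid cells and lie 9245 bases apart on chromosome 11, had differences of the size of that of *Il33*. *Ccl6* was at 7.825, 10.3 and 19.4 CPM in non-diabetic and at 14.3, 28.95 and 60.2 CPM in diabetic samples (log2 difference 1.44, SE 0.30, edgeR adjusted p = 0.163). *Ccl9* was at 4.00, 6.59 and 9.96 CPM against 8.40, 16.6 and 32.5 CPM (log2 difference 1.37, SE 0.29). Both overlapped between the pregnancies through *Wt* non-diabetic replicate 25, the highest control, and *Wt* diabetic replicate 50, the lowest exposed sample. *Fyb*, an adaptor of immune cell receptors, did not overlap (1.11 to 1.87 CPM against 2.03 to 3.27 CPM, log2 difference 0.78). *Herpud1*, which is induced by stress of the endoplasmic reticulum, was at 181, 210 and 254 CPM against 249.8, 292.5 and 396 CPM, a log2 difference of 0.52 (SE 0.11). *Gm38832* was counted at 0.273 to 0.564 CPM in non-diabetic and 0.6001 to 1.62 CPM in diabetic samples, near the lower limit of what was tested.

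Among the genes with a lower level after diabetic pregnancy, *Syne1* and *Herc3* had the smallest p. For 10 of the 15 genes with the smallest p in this direction all diabetic samples lay below all non-diabetic samples, beside 0.335% of all tested genes. The choice by p favours this too. The fold values of the 15 genes ran from 0.321 to 0.831. *Syne1*, on chromosome 10 from 5020917 to 5551482, encodes the giant protein nesprin-1, which ties the nucleus to the cytoskeleton. It was at 99.95, 105 and 112 CPM in non-diabetic and at 76.4, 83.2 and 90.2 CPM in diabetic samples (log2 difference -0.33, SE 0.05, edgeR adjusted p = 0.106). *Herc3*, on chromosome 6 from 58831465 to 58920398, encodes a ubiquitin ligase and was at 48.8, 50.9 and 53.4 CPM against 30.7, 38.7 and 41.6 CPM (log2 difference -0.43, SE 0.07, edgeR adjusted p = 0.106). In both genes the lowest non-diabetic sample was above the highest diabetic sample in each genotype. The 250 bases before the first RefSeq start of these genes, the pair with the smallest p among those that were lower, held neither ACGTG nor GCGTG on either strand. Both windows lie inside the gene spans given above, so the bases before the outer ends of those spans are not shown.
*Syne1* (chr10:5550693-5550942, - strand): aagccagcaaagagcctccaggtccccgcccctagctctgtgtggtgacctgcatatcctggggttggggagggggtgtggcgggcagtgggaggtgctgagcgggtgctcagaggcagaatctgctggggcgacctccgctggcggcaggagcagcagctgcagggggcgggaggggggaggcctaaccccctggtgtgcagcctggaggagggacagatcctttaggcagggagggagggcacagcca
*Herc3* (chr6:58833450-58833699, + strand): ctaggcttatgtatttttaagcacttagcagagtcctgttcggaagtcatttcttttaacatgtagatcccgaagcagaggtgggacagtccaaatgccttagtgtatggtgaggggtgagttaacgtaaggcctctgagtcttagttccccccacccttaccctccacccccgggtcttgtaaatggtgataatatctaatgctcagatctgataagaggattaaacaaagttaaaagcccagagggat

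*Adra1a*, the α1A-adrenergic receptor through which noradrenaline acts on cardiomyocytes, was at 23.5, 26.2 and 32.2 CPM in non-diabetic and 14.6, 18.7 and 21.8 CPM in diabetic samples. The groups did not overlap, and the log2 difference was -0.53 (SE 0.09, edgeR adjusted p = 0.106), with -0.48 within *Wt* and -0.59 within *Hif1a*+/-. *Ankrd28*, a regulatory subunit of protein phosphatase 6, was at 38.9 to 45.6 CPM against 29.5 to 37.1 CPM, and *Satb1*, an organiser of chromatin, at 27.5 to 29.8 CPM against 21.5 to 24.6 CPM. *Stk24*, a kinase of the germinal centre family, was at 44.4 to 50.2 CPM against 33.7 to 43.1 CPM, and the inflammasome-related *Nlrp10* at 33.75 to 36.8 CPM against 26.0 to 32.0 CPM. None of these 4 genes overlapped between the pregnancies. *Acss3*, a mitochondrial acyl-CoA synthetase, was at 1.72 to 2.93 CPM against 0.972 to 1.66 CPM, a log2 difference of -0.84 (SE 0.17). *Ano4*, of the anoctamin family of membrane proteins, was at 8.59 to 9.61 CPM against 5.68 to 7.55 CPM. *Luzp2* and *Cdh20*, a cadherin, were rare, with medians of 1.32 and 1.87 CPM in non-diabetic and 0.63 and 0.539 CPM in diabetic samples, and *Cdh20* overlapped between the pregnancies through *Hif1a*+/- non-diabetic replicate 32. *Osbpl6*, of the oxysterol-binding family, and the transcript *Gm13479* had log2 differences of -0.48 (SE 0.09) and -0.77 (SE 0.15).

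*Tspan18* and *Trp53i11* were lower together. *Tspan18*, a tetraspanin, was at 18.4, 25.2 and 34.0 CPM in non-diabetic and 10.2, 14.0 and 19.9 CPM in diabetic samples (log2 difference -0.80, SE 0.15, edgeR adjusted p = 0.109), and *Trp53i11*, a p53-induced gene, was at 52.2, 71.2 and 74.1 CPM against 39.85, 44.9 and 60.9 CPM (log2 difference -0.51, SE 0.10). These genes lie on opposite strands of chromosome 2, and their 3′ ends meet at 93201759 and 93201760 with 0 bases between them. The strand setting of the counting is not given in the sources used here, so reads from the end of the one gene cannot be told apart from reads of the other, and the pair was not taken as 2 separate observations.

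**Figure D2:**
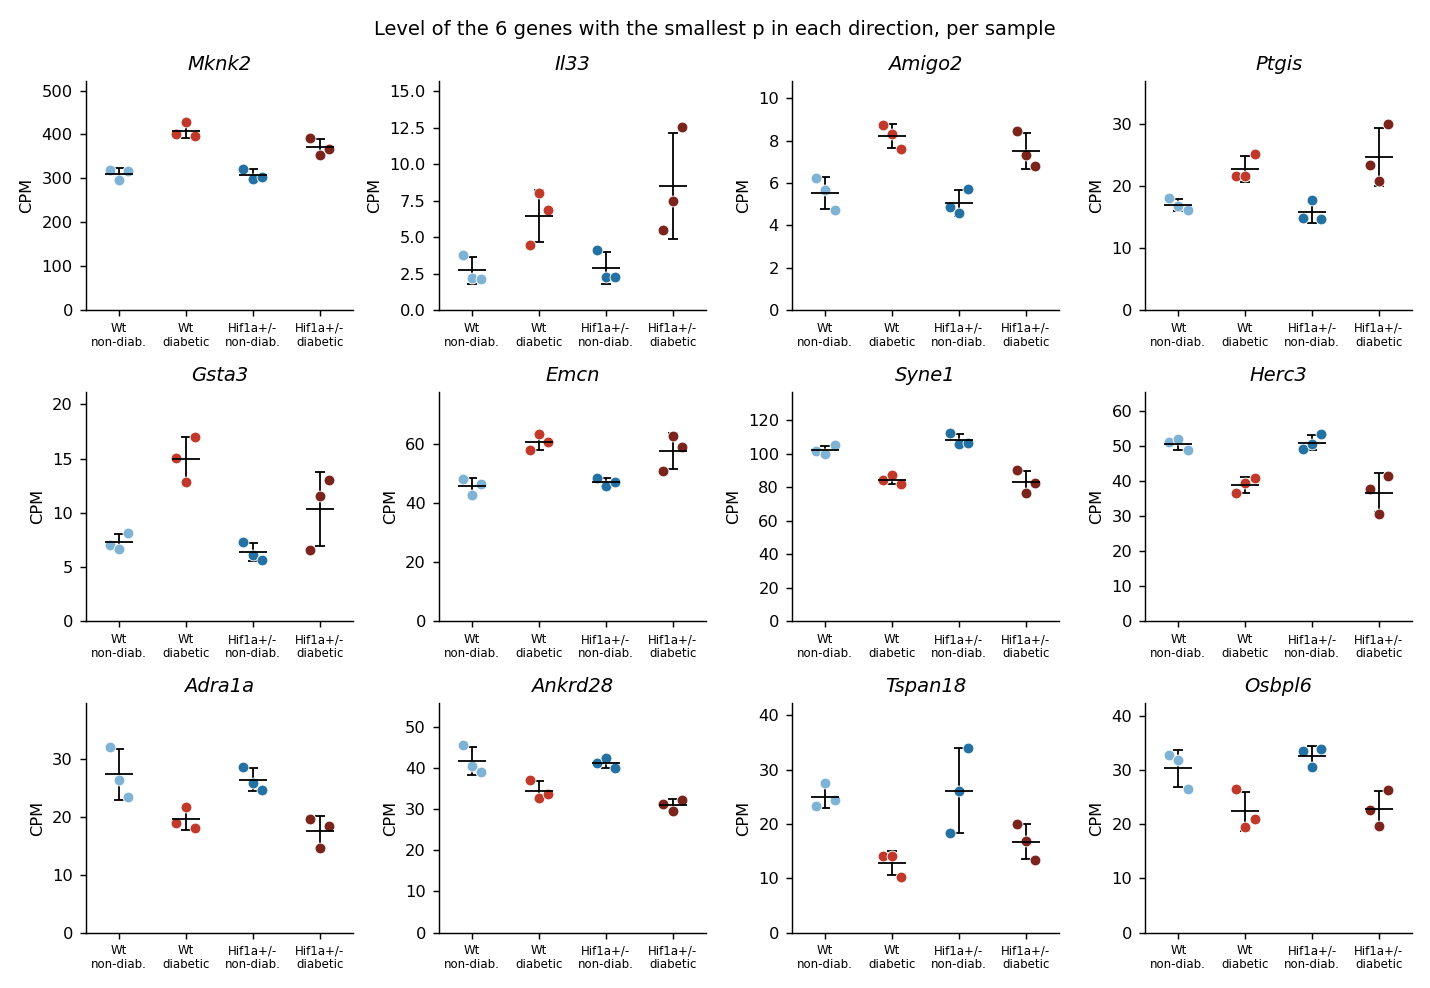
Level in CPM (y axes, from 0) of the 6 genes with the smallest p among those higher after diabetic pregnancy (*Mknk2* to *Emcn*) and the 6 among those lower (*Syne1* to *Osbpl6*). Points are samples in the 4 groups of 3 (x axes), and bars are the mean ± SD. *Mknk2*, at 296 to 322 CPM in non-diabetic and 353.5 to 428 CPM in diabetic samples, and *Syne1*, at 99.95 to 112 CPM and 76.4 to 90.2 CPM, separate by pregnancy in both genotypes.

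Whether exposure acted alike in the 2 genotypes was then asked from a fit with 1 mean per group. In edgeR no gene passed an adjusted p of 0.1 within *Wt* (0%), within *Hif1a*+/- (0%) or for the interaction (0%). The smallest adjusted p values were 0.9999, 0.123 and 0.998, and the genes under an unadjusted p of 0.05 numbered 422, 1780 and 381. DESeq2 called 8 genes within *Wt*, 207 within *Hif1a*+/- and 4 for the interaction. All 30 genes named above had the same direction in both genotypes, which the choice by the joint fit favours, and 21 of them differed more within *Hif1a*+/-. The log2 differences of all tested genes were also wider there (SD 0.32, against 0.25 within *Wt*), so this count is not particular to the 30 genes. Of the 15 higher genes, 11 separated the 3 diabetic from the 3 non-diabetic samples within *Wt*, where 2.15% of all tested genes did so in that direction, and 14 did so within *Hif1a*+/-, where 11% of genes did. Of the 15 lower genes the counts were 14 within *Wt* (3.43% of genes) and 12 within *Hif1a*+/- (13.2% of genes). These shares describe the genes and do not test them, since the same samples chose them.

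The contrasts within *Wt* and within *Hif1a*+/- share no sample, so each was used to look up genes in the other. Of the 100 genes with the smallest p within *Wt*, 82 had the same direction within *Hif1a*+/-, and of the 100 with the smallest p within *Hif1a*+/-, 89 had the same direction within *Wt*. Over all tested genes the share was 62.5%. The carried-over differences were smaller than those that chose the genes. The 39 genes higher within *Wt* had a median log2 difference of 0.57 there and 0.27 within *Hif1a*+/-, and the 61 lower genes had -0.65 and -0.28. The 71 genes higher within *Hif1a*+/- had a median of 0.90 there and 0.15 within *Wt*, and the 29 lower genes had -0.47 and -0.16. Across the 14927 genes, which are not independent of each other, the 2 sets of log2 differences had a Spearman's coefficient of 0.30 and a Pearson's coefficient of 0.23. The log2 differences also followed transcript length in both genotypes (Spearman's coefficient -0.16 within *Wt* and -0.32 within *Hif1a*+/- over 14891 genes with a length), and the part of this in the shared direction was not tested.

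**Figure D3:**
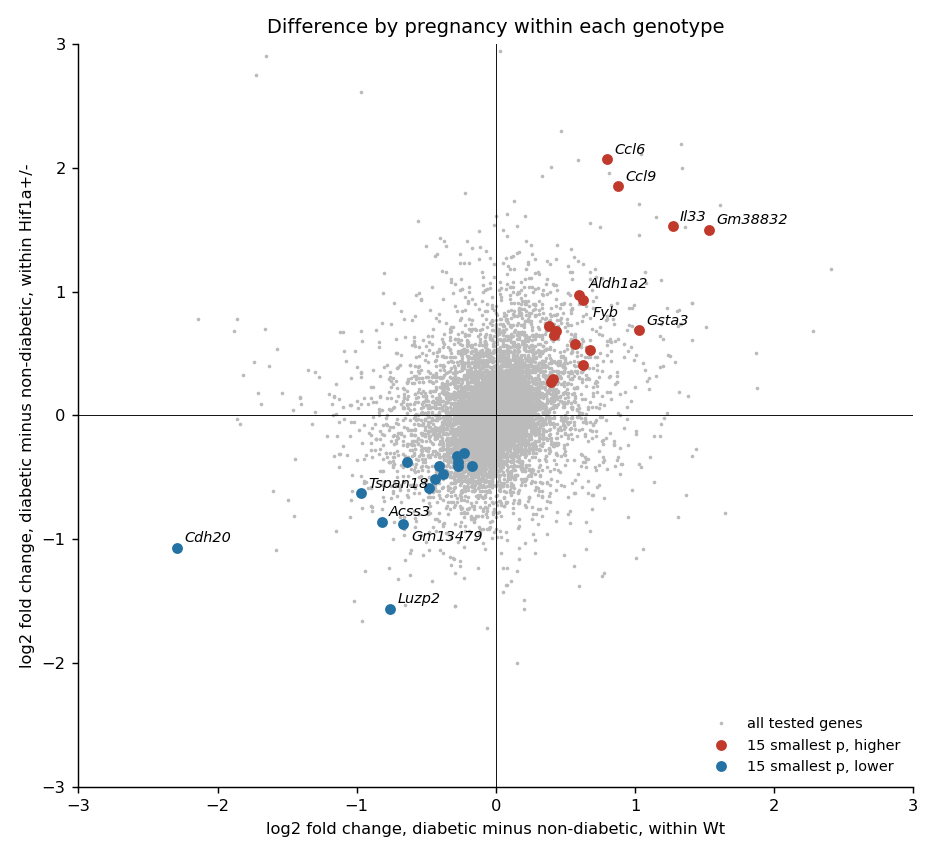
Log2 difference between diabetic and non-diabetic pregnancy within *Wt* (x axis) and within *Hif1a*+/- (y axis) for the tested genes between -3 and 3. Red and blue points are the 15 genes with the smallest joint p in each direction, which lie at the upper right and lower left, with *Ccl6* at 0.80 and 2.07, and *Cdh20* at -2.29 and -1.07.

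The 5 genes with the smallest p for a difference between the genotypes in their response did not pass the interaction test. *Timp1*, an inhibitor of matrix proteases, had a log2 difference of -0.12 within *Wt* and 1.49 within *Hif1a*+/-, and *Duox1*, a hydrogen peroxide-forming oxidase, had -0.36 and 1.37. *Fbn1*, which encodes the microfibril protein fibrillin-1, had -0.55 and 0.48. *Txnip*, a glucose-responsive inhibitor of thioredoxin, had -0.58 and 0.80, and the pentraxin *Ptx3*, at most 0.864 CPM in any sample, had opposite signs too. The edgeR adjusted p of the interaction was 0.998 for each of the 5 genes. In the additive model their differences were -0.03 for *Fbn1*, 0.12 for *Ptx3* and 0.11 for *Txnip*, since opposite directions offset each other there. Within *Hif1a*+/- the 5 genes with the smallest p were *Cfp*, *Timp1*, *Ivns1abp*, *Ccl6* and *Clec3b*, and within *Wt* they were *Mknk2*, *Cdh20*, *Gsta3*, *Tspan18* and *Tsc22d3*. *Tsc22d3*, a gene induced by glucocorticoids, had 0.49 within *Wt* and 0.09 within *Hif1a*+/-.

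Macrophage genes were the gene list with the most DESeq2 calls, apart from the list that the study itself selected from these samples. Resident macrophages clear dying cells and debris in the heart, and monocytes that express *Ccr2* join them from the blood. Of 34 tested members, 33 were higher after diabetic pregnancy, with a median log2 difference of 0.58, beside 49.2% of all tested genes and a median of 0. In edgeR no member passed an adjusted p of 0.1, and in DESeq2 13 were called higher, beside 0.724% of all tested genes, and 0 lower. edgeR called no member of any other list either. The same shares over all tested genes, with 0.61% called lower by DESeq2, stand beside every list below. The scavenger receptor *Msr1* was at 2.65, 4.23 and 4.92 CPM in non-diabetic and 4.385, 7.36 and 10.2 CPM in diabetic samples (log2 difference 0.85, SE 0.18, edgeR adjusted p = 0.176, DESeq2 adjusted p = 0.0048). *Tlr13*, an endosomal receptor for bacterial RNA, was at 1.24, 2.20 and 2.96 CPM against 2.585, 5.35 and 7.11 CPM (log2 difference 1.13, SE 0.25). *Adgre1*, which encodes the macrophage antigen F4/80, was at 4.73, 7.14 and 9.85 CPM against 7.76, 10.3 and 13.5 CPM (log2 difference 0.49, SE 0.17, edgeR adjusted p = 0.347), and *Ccr2* had a log2 difference of 0.91 (SE 0.34). *Mertk*, the receptor through which macrophages take up dying cells, had a log2 difference of -0.01 (SE 0.14).

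The median over the macrophage genes was 0.27 within *Wt* and 0.87 within *Hif1a*+/-. The difference between these medians was not tested, and *Msr1* and *Tlr13* had interaction p values of 0.0851 and 0.0874 (edgeR, adjusted p = 0.998 for both). The mean log2(CPM + 1) over the list was 3.51 to 3.77 in *Wt* non-diabetic, 3.55 to 4.13 in *Wt* diabetic, 3.20 to 3.67 in *Hif1a*+/- non-diabetic and 4.03 to 4.49 in *Hif1a*+/- diabetic samples. *Wt* diabetic replicate 50, at 3.55, lay within the non-diabetic range, whereas all 3 *Hif1a*+/- diabetic samples lay above it. *Wt* diabetic replicate 80 and *Hif1a*+/- diabetic replicates 72 and 77, with list levels of 4.13, 4.03 and 4.49, also had the highest values on principal component 1 (29.99, 20.1 and 25.52), against -16.48 for replicate 50. Their log2 difference between long and short transcripts was -0.337, -0.208 and -0.169, against -0.038 for replicate 50. *Hif1a*+/- diabetic replicate 66, with a list level of 4.18, had 5.62 on this component and -0.072 between long and short transcripts. *Wt* non-diabetic replicate 89, with a list level of 3.77, had 10.18 and -0.239. The part of either measure in the macrophage difference was not tested. The summed level of the list was 516 to 865 CPM in non-diabetic and 684 to 1411 CPM in diabetic samples, and no member separated all 12 samples. Of the 34 members, 6 are on the list that the study selected for both diabetic groups. The DESeq2 calls in the list numbered 3 without *Wt* non-diabetic replicate 42 or without *Wt* diabetic replicate 80, 4 without *Hif1a*+/- non-diabetic replicate 32 or 44 or *Hif1a*+/- diabetic replicate 77, 5 without *Hif1a*+/- diabetic replicate 66, 7 without *Hif1a*+/- non-diabetic replicate 14, 20 without *Wt* diabetic replicate 7, 24 without *Wt* diabetic replicate 50 and 26 without *Wt* non-diabetic replicate 89. The median stayed between 0.48 and 0.70 in every leave-out, and was 0.62 without *Hif1a*+/- diabetic replicate 72.

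**Figure D4:**
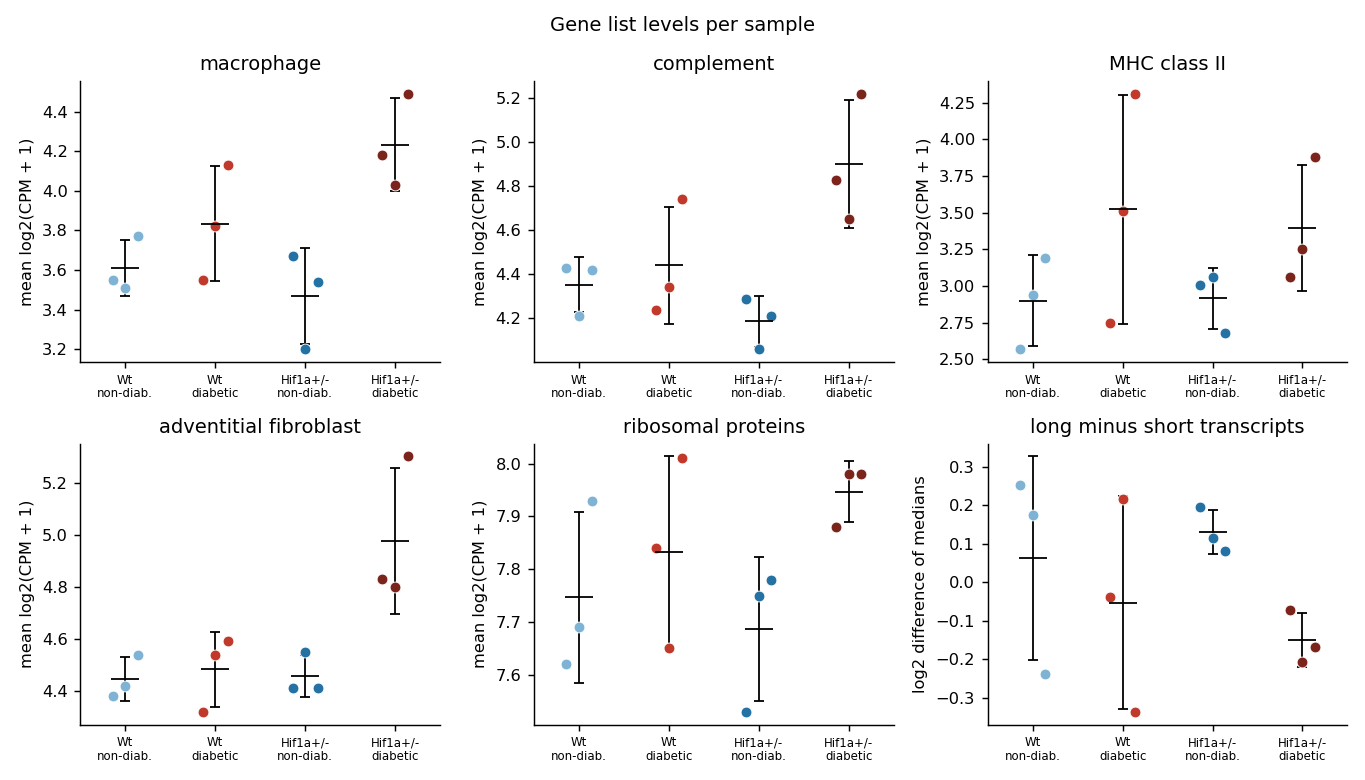
Mean log2(CPM + 1) over the members of 5 gene lists, and the log2 difference between long and short transcripts (lower right), per sample (points) in the 4 groups of 3 with the mean ± SD (bars). The y axes do not start at 0. *Hif1a*+/- diabetic samples are above both non-diabetic groups for macrophage (4.03 to 4.49), complement (4.65 to 5.22) and adventitial fibroblast genes (4.80 to 5.30), while *Wt* diabetic samples overlap them.

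Complement and antigen presentation genes had the same direction as the macrophage genes, with which the lists share members. Complement is a cascade of blood and tissue proteins that tags particles for uptake. Of its 18 tested genes 17 were higher (median 0.54, 0.11 within *Wt* and 1.00 within *Hif1a*+/-), beside 49.2% of all tested genes. DESeq2 called 5 higher and 0 lower, beside 0.724% and 0.61% of all tested genes. The *C1qa*, *C1qb* and *C1qc* chains of the complement recognition protein, made by macrophages, had log2 differences of 0.67, 0.81 and 0.65. *Cfp*, properdin, which stabilises the alternative pathway, had 0.20 within *Wt* and 1.04 within *Hif1a*+/-. All 8 MHC class II genes were higher (median 0.73, 1 called by DESeq2), with medians of 0.87 within *Wt* and 0.76 within *Hif1a*+/-. *Cd74*, the invariant chain, was at 29.2, 54.9 and 74.1 CPM against 42.6, 95.0 and 220 CPM (log2 difference 1.05, SE 0.34, edgeR adjusted p = 0.32), and the highest value was that of *Wt* diabetic replicate 80. The MHC class I and interferon-stimulated genes had a median of 0.17 over 40 genes, with 3 called by DESeq2, *Ifitm1* (0.73, SE 0.21), *Ifitm2* (0.28, SE 0.08) and *B2m* (0.43, SE 0.12). *Ifitm1* had 0.23 within *Wt* and 1.22 within *Hif1a*+/-, and *Ifitm2* had 0.22 and 0.35.

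Other leukocyte lists held few measurable genes. Of 22 lymphocyte genes 10 were tested, and 9 of them were higher, with a median of 0.35. The exception was *Blk*, a B cell kinase (4.00, 5.07 and 6.28 CPM against 1.72, 3.27 and 4.02 CPM, log2 difference -0.76, SE 0.19, edgeR adjusted p = 0.269, DESeq2 adjusted p = 0.032), and *Ptprc*, which marks all leukocytes, was at 4.28 to 7.16 CPM against 5.49 to 10.4 CPM (log2 difference 0.33, SE 0.15). The neutrophil and mast cell list had 7 tested genes of 15, with a median of 0.28 and medians of -0.17 within *Wt* and 1.04 within *Hif1a*+/-. Of 25 chemokines and cytokines, 20 were higher (median 0.21), and DESeq2 called *Il33*, *Ccl6* and *Ccl9*.

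Adventitial fibroblasts are the stromal cells around vessels. Of 17 genes of this subset, 14 were higher, with medians of 0.39 in the additive model, 0.07 within *Wt* and 0.54 within *Hif1a*+/-. edgeR called none of them and DESeq2 called 5 higher, beside 0.724% of all tested genes. *Ccdc80*, a matrix protein, was at 81.3, 87.7 and 102 CPM in non-diabetic and at 90.9, 121 and 143 CPM in diabetic samples (log2 difference 0.42, SE 0.09, edgeR adjusted p = 0.196). *Dpt*, dermatopontin, had a log2 difference of 0.36 (SE 0.10), with 0.16 within *Wt* and 0.56 within *Hif1a*+/-. The general fibroblast markers *Pdgfra*, *Tcf21*, *Col1a1* and *Dcn* had 0.11, 0.09, 0.09 and 0.16, and the 49 collagens and other matrix genes had a median of 0.06 with 4 called higher and 1 lower by DESeq2. The 1 lower was *Plod2*, a collagen lysyl hydroxylase and HIF-1 target, at 40.6 to 52.2 CPM against 35.6 to 43.1 CPM. Matrix proteases and inhibitors had a median of 0.23 over 19 genes, with *Adamtsl4* (0.41, SE 0.10) and *Adamtsl3* (0.74, SE 0.23) called by DESeq2. Of the TGF-β genes, which control scarring, *Tgfbr2*, the ligand-binding receptor, separated all samples at 59.5 to 63.3 CPM against 64.7 to 97.2 CPM (log2 difference 0.29, SE 0.07, edgeR adjusted p = 0.27), whereas the median of the 20 genes was 0.09.

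Vascular genes as a whole were near zero (median 0.03 over 30 endothelial genes), with differences in single surface proteins. Besides *Emcn*, *Vcam1*, which binds leukocytes to activated endothelium, was at 14.9, 15.4 and 16.2 CPM in non-diabetic and 15.9, 22.8 and 38.1 CPM in diabetic samples (log2 difference 0.66, SE 0.17, edgeR adjusted p = 0.269). The pan-endothelial genes *Pecam1*, *Cdh5* and *Kdr* had 0.09, -0.20 and -0.05. *Lyve1*, which marks lymphatic endothelium and also resident macrophages, was at 11.8, 16.4 and 22.0 CPM against 20.5, 26.2 and 44.0 CPM (log2 difference 0.79, SE 0.20), while the other lymphatic gene named by the rule, *Ccl21a*, had 0.33 (SE 0.14). The VEGF and angiogenesis genes had a median of -0.04 and no call by either tool. Smooth muscle and pericyte genes had a median of -0.08, and *Myocd*, the coactivator of smooth muscle and heart genes, was at 36.8 to 55.8 CPM against 31.9 to 52.9 CPM (log2 difference -0.39, SE 0.13).

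Genes of the contractile apparatus differed little. The 24 cardiomyocyte contractile genes had a median of 0.05 and no call, their summed level was 116500 to 128500 CPM in non-diabetic and 120700 to 131500 CPM in diabetic samples. The smallest p values in the list belonged to *Mylk3*, the cardiac myosin light chain kinase, at -0.22 (SE 0.09) and to desmin (*Des*) at 0.14 (SE 0.06). Within *Wt* and within *Hif1a*+/-, *Mylk3* had -0.05 and -0.39, and *Des* had 0.13 and 0.14. The stress and fetal programme genes had a median of 0.02 over 14 genes, and *Lmcd1* (0.24, SE 0.08) and *Rrad* (0.36, SE 0.16) had the smallest p. *Lmcd1* had 0.03 within *Wt* and 0.44 within *Hif1a*+/-, and *Rrad* had -0.03 and 0.76. Neither passed the interaction test (edgeR adjusted p = 0.998 for both). Among 27 calcium handling and excitation genes (median -0.07) DESeq2 called 2 lower, *Adra1a* and *Gja1*. *Gja1*, which encodes the main gap junction protein of the ventricle, was at 669, 770 and 949 CPM in non-diabetic and 468, 602 and 706 CPM in diabetic samples. Its log2 difference was -0.39 (SE 0.11, edgeR adjusted p = 0.283, DESeq2 adjusted p = 0.067) and was -0.39 within each genotype.

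Energy metabolism showed small differences. Of the 52 nuclear-encoded respiratory chain genes, 49 were higher, beside 49.2% of all tested genes, but the median was 0.11 and no gene was called by either tool. Their median transcript length was 1232 bases, against 3261 bases for all tested genes, and the part of length in this difference was not tested. *Cox4i1*, a subunit of cytochrome c oxidase, was at 1800, 1916 and 2429 CPM against 1832, 2321 and 2761 CPM (log2 difference 0.23, SE 0.10). The 40 genes of fatty acid uptake and oxidation had a median of -0.04. *G0s2*, an inhibitor of fat breakdown, was at 38.1, 62.1 and 90.5 CPM against 32.6, 40.2 and 55.8 CPM (log2 difference -0.63, SE 0.18, edgeR adjusted p = 0.286, DESeq2 adjusted p = 0.055). The 33 genes of glucose uptake and glycolysis had a median of 0.05. *Pfkfb2*, with the smallest p of this list, was lower (log2 difference -0.28, SE 0.10, edgeR adjusted p = 0.343), with -0.13 within *Wt* and -0.44 within *Hif1a*+/-. The insulin-dependent glucose transporter *Slc2a4* was at 547 to 621 CPM against 588 to 687 CPM (log2 difference 0.11, SE 0.05). In the insulin and IGF list, with a median of -0.01, DESeq2 called *Igfbp4* (0.35, SE 0.09) and the fetal growth factor *Igf2*, which was at 25.4, 29.9 and 36.5 CPM against 29.4, 42.6 and 50.7 CPM (log2 difference 0.45, SE 0.12). *Igfbp4* had 0.15 within *Wt* and 0.56 within *Hif1a*+/-, and *Igf2* had 0.49 and 0.40.

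The list of HIF-1 targets had medians near zero. The median was 0.06 over 32 genes with no call by either tool, and 0.03 within *Wt* and 0.04 within *Hif1a*+/-. This holds for the listed genes only. Outside the list, DESeq2 called *Plod2* lower, and it called *Axl* and *Cfp*, which the study names as direct HIF-1 targets, higher. The smallest p values belonged to *Kdm3a*, a histone demethylase, at -0.29 (SE 0.10) and to adrenomedullin (*Adm*), a vasodilator peptide, at -0.41 (SE 0.18). *Hif1a* was at 55.7, 75.3 and 89.3 CPM in non-diabetic and 48.0, 62.0 and 81.5 CPM in diabetic samples, a log2 difference of -0.20 (SE 0.08, edgeR adjusted p = 0.414). *Egln2*, which encodes one of the prolyl hydroxylases that mark HIF-1α for degradation, had 0.09 (SE 0.06). In promoters from 250 bases before to 50 bases after each RefSeq start, ACGTG was present on either strand for 20.2% of the 84 DESeq2-called higher genes with a promoter and 24.3% of the 70 lower ones, against 28.6% of 11021 tested genes. GCGTG was present for 44.0% and 58.6%, against 54.3%, and the E-box CACGTG, which contains ACGTG, for 7 of 84 and 7 of 70 genes, against 11.5% of all.

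Protein folding genes held 3 DESeq2 calls and antioxidant genes held 1. Of 30 heat shock and unfolded protein response genes, 22 were higher (median 0.11), beside 49.2% of all tested genes. *Herpud1*, *Calr* and *Pdia6* were called higher, beside 0.724% of all tested genes. *Calr*, the calcium-binding chaperone calreticulin, was at 235, 313 and 368 CPM in non-diabetic and 352, 404 and 461 CPM in diabetic samples (log2 difference 0.38, SE 0.10, edgeR adjusted p = 0.27), with 0.33 within *Wt* and 0.44 within *Hif1a*+/-. *Pdia6*, a disulfide isomerase of the same compartment, had 0.33 (SE 0.10). The antioxidant list had a median of 0.11 over 33 genes, with *Gsta3* called. Clock genes had opposite medians in the genotypes (0.35 within *Wt* and -0.09 within *Hif1a*+/-), and *Arntl*, the core activator of the clock, was at 5.37, 18.0 and 21.6 CPM against 2.78, 6.48 and 11.9 CPM (log2 difference -1.12, SE 0.36, edgeR adjusted p = 0.317).

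**Figure D5:**
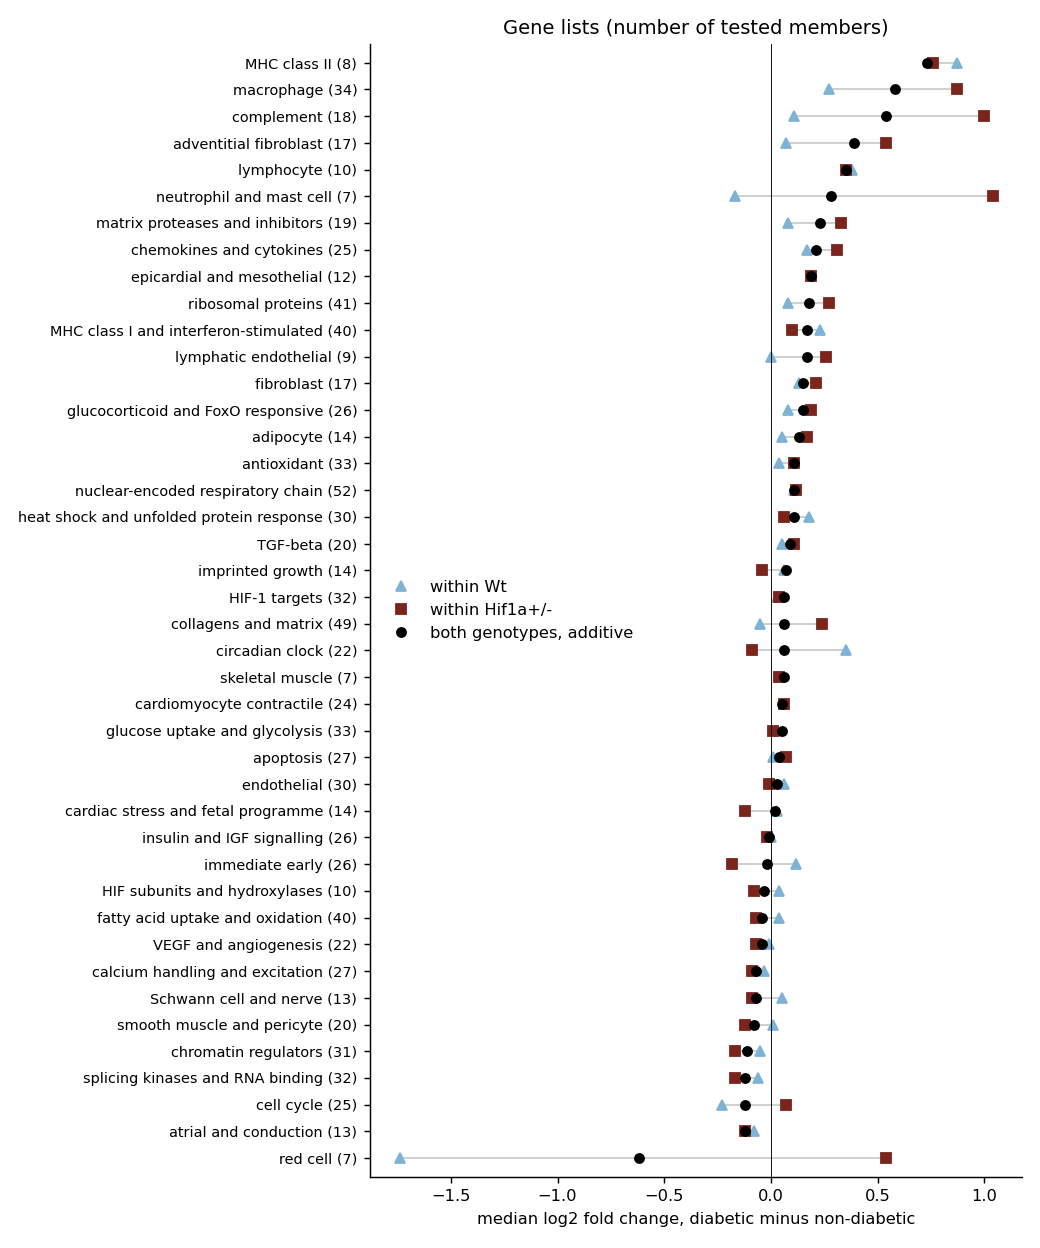
Median log2 difference between diabetic and non-diabetic pregnancy (x axis) over the tested members of each gene list (y axis, number of tested members in brackets) in the additive model (circles), within *Wt* (triangles) and within *Hif1a*+/- (squares). The MHC class II (0.73) and macrophage genes (0.58) have high medians in the additive model, and the contractile (0.05) and calcium handling genes (-0.07) lie near zero.

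Ribosomal, splicing and chromatin genes, which differ in transcript length, differed in direction. All 41 ribosomal protein genes were higher (median 0.18, median transcript length 1106 bases, 1 called by DESeq2), while 29 of 32 splicing and RNA-binding genes (median -0.12, 4121 bases, none called) and 23 of 31 chromatin regulators (median -0.11, 6654 bases, 2 called lower by DESeq2) were lower. *Rpsa* had 0.25 (SE 0.07), *Clk1*, a splicing kinase, -0.19 (SE 0.08), and the demethylase gene *Kdm5a* -0.29 (SE 0.08). Over 14891 genes the log2 difference had a Spearman's coefficient of -0.29 with transcript length. In each sample the median deviation of genes with transcripts of 6682 bases or more was set against that of genes with 1218 bases or fewer. This long minus short difference was -0.239 to 0.252 in non-diabetic and -0.337 to 0.216 in diabetic samples, lower by 0.198 on average (exact permutation test within genotype, two-sided p = 0.105, where the smallest possible is 0.005). It was lowest in *Wt* diabetic replicate 80 and, among controls, in *Wt* non-diabetic replicate 89, the library whose omission gave the most calls. The median transcript length was 4696 bases for the 15 lower genes, 2792 bases for the 15 higher genes and 3261 bases for all tested genes, and the part of length in these differences was not tested.

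Among other lists, the median was 0.19 for epicardial and mesothelial, 0.15 for general fibroblast, 0.15 for glucocorticoid and FoxO responsive, 0.07 for imprinted growth, -0.02 for immediate early and -0.12 for cell cycle genes. It was -0.43 over the 5 genes of the list of Y-linked genes and *Xist*, in which *Hif1a*+/- diabetic replicate 72 stood apart. The adipocyte markers *Adipoq*, *Plin1* and *Cidec* were at or below 1.32 CPM, but the list summed to 972 to 1312 CPM in non-diabetic and 1026 to 1420 CPM in diabetic samples, with *Thrsp* at 47.0 to 89.4 CPM and 69.15 to 101.5 CPM. The skeletal muscle markers *Myh4*, *Tnnt3* and *Actn3* were at or below 0.565 CPM, and that list summed to 2142 to 2831 CPM and 2298 to 3070 CPM, with *Myl1* at 57.3 to 74.2 CPM and 40.2 to 76.1 CPM. The mesothelial markers *Msln* and *Upk3b* reached 2.11 and 3.83 CPM in diabetic and 0.81 and 1.99 CPM in non-diabetic samples. The more abundant marker *Wt1* went the other way, at 4.23 to 8.96 CPM in diabetic and 7.33 to 10.3 CPM in non-diabetic samples (log2 difference -0.33). Red cell genes were far higher in *Wt* non-diabetic replicate 25 than elsewhere (summed level of the list up to 7489 CPM, against 385 CPM in the lowest control and 207 to 1816 CPM in diabetic samples). The median of the red cell list was -0.62, with all 7 tested genes lower, and it was -1.74 within *Wt*, where that library is a control, and 0.54 within *Hif1a*+/-. One list held 9 genes that were also assayed outside sequencing, which is a part of the genes so assayed. Among these 9, DESeq2 called *Gja1*. *Vegfa* was at 284 to 592 CPM in non-diabetic and 211 to 481 CPM in diabetic samples (log2 difference -0.43, SE 0.23), *Tgfb2* had 0.19 (SE 0.08) and *Tnfrsf1b* 0.12 (SE 0.11). *Ldha*, *Cd36*, *Tgfb1* and *Pecam1* had 0.06, -0.05, -0.05 and 0.09, each with an SE of 0.08.

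The 33 genes that the study listed for both diabetic groups were chosen on these samples, so their values are not independent evidence. In the additive model 27 were higher and 6 lower, with a median of 0.62, and DESeq2 called 20 higher and 4 lower. They include 10 of the 15 higher genes named above and 3 of the 15 lower ones. *Mknk2*, *Emcn*, *Pla2g4a*, *Syne1*, *Herc3*, *Adra1a* and *Ankrd28* are not on that list, which required a minimum change in each diabetic group. Each of them separated all 6 diabetic from all 6 non-diabetic samples, but they too were chosen on these samples. The study listed *Mknk2* for *Wt* diabetic and *Adra1a* for *Hif1a*+/- diabetic hearts only. It named *Syne1*, *Herc3* and *Ankrd28* elsewhere among its differentially expressed genes.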

How the data were processed

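Polyadenylated RNA of 12 LVs was sequenced from the 3′ ends of transcripts. Per the labels and the study's methods, the authors trimmed reads with Trimmomatic, removed ribosomal and mitochondrial reads, aligned with STAR (2.5.2b) to GRCm38 and deposited counts per gene from HTSeq with GENCODE annotation. Their normalized values were not used here. The 5 tally lines that name no gene (20.2% to 24.18% of a sample) were left out. Symbols, lengths and coordinates came from a later GENCODE release (46488 of 46983 genes with a symbol), and promoters from RefSeq (GRCm38.p6).

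Genes with 10 or more counts in at least 3 samples were tested with edgeR's (4.0.16, R 4.3.3) quasi-likelihood test after TMM normalization, with genotype and pregnancy as additive terms, Benjamini-Hochberg adjustment and a threshold of 0.1. DESeq2 (1.42.0) and limma (3.58.1) were alternatives, as were other filters and leaving out each sample. The fit was tested on simulated data. Replicate numbers are animal numbers, and p-values measure the spread between these samples, some of which may be littermates. The members and the 45 gene lists were chosen with earlier results of these data known. Named genes were the 15 with the smallest p in each direction, the genes past the threshold or otherwise the 2 with the smallest p in each list, a list of 9 of the genes also assayed outside sequencing (others in the study's PCR panel were left out of it), *Hif1a*, and the 5 with the smallest p for the interaction and within each genotype. Other genes named were chosen after their values were seen. The result of 1 gene named by this rule is not reported here.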

Additional observations from a re-analysis of the deposited data

Results flagged for a closer look

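In groups of 6 samples, 150 checks for a single sample far from the others were made, and chance gives about 1 such sample in 20 checks. The gap to the nearest sample, as a share of the group's range, passed Dixon's critical value in 8 cases. *Wt* non-diabetic replicate 25 stood apart in mean log2(CPM + 1) for red cell genes (8.05 against 3.9 to 4.63, share 0.824), HIF-1 targets (6.34 against 6.11 to 6.15, share 0.8296), neutrophil and mast cell genes (2.11 against 1.12 to 1.44, share 0.677) and glucose uptake and glycolysis genes (8.3 against 8.11 to 8.18, share 0.644). *Wt* diabetic replicate 7 stood apart for smooth muscle and pericyte genes (5.79 against 5.36 to 5.5, share 0.675) and antioxidant genes (6.14 against 6.33 to 6.42, share 0.694). *Hif1a*+/- diabetic replicate 72 stood apart for Y-linked genes and *Xist* (1.75 against 4.54 to 5.07, share 0.842). *Gm38832* was at 0.564 CPM in *Hif1a*+/- non-diabetic replicate 32 and at 0.273 to 0.374 CPM in the other non-diabetic samples (share 0.63).

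In 3 genes every diabetic sample of one genotype lay on the other side of its controls than in the other genotype. The within-*Hif1a*+/- minus within-*Wt* log2 difference was 1.03 for *Fbn1*, 1.95 for *Ptx3* and 1.38 for *Txnip*. None passed the test of the interaction (edgeR adjusted p = 0.998 for each).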

How the results depend on the processing

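The number of genes called for the maternal diabetes main effect, 0 in edgeR, was 199 with DESeq2, 721 with limma-voom and sample weights, 10 with a robust fit, 336 without a filter on low counts and 11 without the genotype term, and it was 0 in 14 of 23 alternatives. With DESeq2, 8 genes were called within *Wt*, 207 within *Hif1a*+/- and 4 for the interaction. Leaving out 1 sample gave 0 to 169 genes for the main effect, 0 to 38 within *Hif1a*+/- (38 without *Hif1a*+/- diabetic replicate 72 and 2 without replicate 66) and 0 to 1 for the interaction (1 without *Wt* diabetic replicate 7). Chosen after seeing the data, leaving out 1 sample gave 58 to 1069 DESeq2 calls and 111 to 294 genes without overlap, where fewer samples had to separate. The causes were not tested. The 15 and 15 genes kept their sign in 688 of 688 values under alternatives and passed the threshold in 168. The alternatives reuse the samples that chose these genes, so a kept sign was favoured in advance. Of 2773 values for 121 named genes, 2466 kept direction and side of the threshold, 295 newly passed it and 12 changed sign. No paired analysis was possible because the animal numbers in the titles are not shared between groups and no label ties samples to a litter.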

Other observations

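The following lists were chosen after the values were seen, so they are descriptions without a test. All 17 genes of a list of prostanoid and leukotriene metabolism were higher after diabetic pregnancy, beside 49.2% of all tested genes. The list was built around genes already seen to be higher, and its only receptors were *Ptgir*, *Ptger4* and *Tbxa2r*. Its median log2 difference was 0.34. *Ptgs1*, the constitutive cyclooxygenase, lay at 7.40 to 8.58 CPM in all non-diabetic samples and above this range in all diabetic samples (log2 difference 0.39, SE 0.09, edgeR adjusted p = 0.196), as did *Pla2g4a* before it and *Ptgis* after it in the pathway. *Ptgs2*, the inducible form, had 0.69 (SE 0.30), and the thromboxane receptor *Tbxa2r* 0.02 (SE 0.16). In the machinery that inserts and glycosylates proteins at the endoplasmic reticulum, 16 of 19 genes were higher (median 0.14), beside 49.2% of all tested genes. The oligosaccharyltransferase subunits *Rpn1* (0.18, SE 0.06), *Rpn2* (0.16, SE 0.05) and *Ddost* (0.20, SE 0.05) were called by DESeq2, which called 0.724% of all tested genes higher. The subunits *Stt3a* and *Stt3b* of the same enzyme had 0.03 and 0.00 (SE 0.07 each).

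The IL-33 receptor *Il1rl1* had -0.07 (SE 0.32), with a level of at most 0.817 CPM in non-diabetic samples. *Mknk1*, the paralog of *Mknk2*, had -0.07 (SE 0.09), *Syne2*, the paralog of *Syne1*, -0.14 (SE 0.08), and *Tyro3*, of the family of *Axl*, -0.01 (SE 0.14). The α1B-adrenergic receptor *Adra1b* had -0.27 (SE 0.08, edgeR adjusted p = 0.302), in the direction of *Adra1a*. In the retinoic acid pathway, 9 of 10 tested genes were higher, beside 49.2% of all tested genes, with a median of 0.14. *Stra6* (1.04, SE 0.35), at most 1.03 CPM in any sample, and *Cyp26b1* (1.14, SE 0.41), which breaks retinoic acid down, were among them. Neither passed the threshold in edgeR. *Rdh10* went the other way (-0.18, SE 0.09), and *Aldh1a1* and *Aldh1a3* had 0.09 (SE 0.15) and 0.08 (SE 0.25).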
